A study of Mus musculus with 3 samples.

Results

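The genes described here are 10 feedback inhibitors of ERK signalling, chosen by name among the 24346 gene symbols of the deposited table: the dual-specificity phosphatases *Dusp1*, *Dusp2*, *Dusp4*, *Dusp5* and *Dusp6*, the Sprouty genes *Spry1*, *Spry2* and *Spry4*, and the Spred genes *Spred1* and *Spred2*. All 10 have a row in the table. Their levels were measured in endothelial cells (ECs) of the adult lung, in 3 bulk RNA-seq libraries named S38, S44 and S52. The mice were wild-type C57BL/6J males aged 6 to 8 weeks, and an antibody to VE-cadherin was injected before the organs were taken. Lungs were digested with collagenase and dispase at body temperature, and CD31+ cells without CD45 or podoplanin were sorted and used fresh, without culture. All 3 libraries belong to this 1 condition, so no difference between conditions was tested, and the labels do not say whether each library came from its own mouse. The spread given below is therefore that between these libraries.

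ERK is the last kinase of the cascade that runs from receptor tyrosine kinases through RAS, RAF and MEK, and in ECs it carries signals of VEGF and FGF receptors. Active ERK switches on genes that shut the cascade down again, so that each round of signalling leaves its own inhibitors behind. Dual-specificity phosphatases take the activating phosphates off MAP kinases. Sprouty proteins act further upstream, between the receptor and RAF, and Spred proteins recruit the RAS inactivator neurofibromin to the membrane. Because many of these transcripts are short-lived and quickly induced, they are often read as a record of recent signalling, and *Dusp1* is also well known as an immediate-early gene of stress and of tissue dissociation.

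Promoters are shown for *Dusp1* and *Dusp6*, the members with the highest levels in these libraries, and for *Dusp5*, whose promoter held motifs the others lacked. RefSeq promoters of 8 of the 10 members were matched by symbol on GRCm38.p6, all except *Dusp4* and *Spry4*. Printed 5′ to 3′ in the direction of the gene, each run ends at the base before the start of the longest coding transcript in GENCODE or, where it comes first, the RefSeq start. For *Dusp1* a longer GENCODE model that begins further upstream places the run in an intron. Capitals mark a cAMP response element (CRE, TGACGTCA) or its core (TGACG), a CArG box (the site of serum response factor) and a CCAAT box, on either strand.
*Dusp1* promoter, chr17:26508520-26508722, minus strand: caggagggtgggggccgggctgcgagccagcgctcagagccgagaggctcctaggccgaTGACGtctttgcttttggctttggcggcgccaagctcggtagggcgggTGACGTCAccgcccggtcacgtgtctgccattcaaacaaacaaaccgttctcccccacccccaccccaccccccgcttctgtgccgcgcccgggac
*Dusp5* promoter, chr19:53528895-53529108, plus strand: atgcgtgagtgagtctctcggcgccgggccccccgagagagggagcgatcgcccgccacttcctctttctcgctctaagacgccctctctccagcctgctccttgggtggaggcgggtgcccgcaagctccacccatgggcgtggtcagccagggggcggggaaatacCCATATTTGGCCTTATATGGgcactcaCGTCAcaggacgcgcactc
*Dusp6* promoter, chr10:99262981-99263230, plus strand: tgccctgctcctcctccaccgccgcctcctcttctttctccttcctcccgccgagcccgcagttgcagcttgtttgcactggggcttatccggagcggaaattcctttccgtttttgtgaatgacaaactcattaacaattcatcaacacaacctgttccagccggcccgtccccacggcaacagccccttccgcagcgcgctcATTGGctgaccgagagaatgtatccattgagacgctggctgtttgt

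In the 250 bases before the RefSeq start, the full CRE was found in 1 of the 8 member promoters, that of *Dusp1*, from 143 to 136 bases before the start, against 1.55% of 32851 promoters in the table. It contains the core on each strand and lies between a pair of GC boxes, and *Dusp1* has a further core from 191 to 187 bases before the start. The core was in 3 of the 8 promoters (*Dusp1*, *Dusp5* and *Spred2*) and in 17.8% of all promoters. A CArG box occurs in 1.47% of all promoters, and *Dusp5* was the one member with any. Its promoter has a pair of them side by side, CCATATTTGG from 82 to 73 bases and CCTTATATGG from 72 to 63 bases before the start. A CCAAT box was found in *Dusp6* and *Spry1* and in 33.8% of all promoters. The GC box GGGCGG was in 6 of the 8, all but *Dusp6* and *Spry2*, and in 32.7% of all promoters. The 8 windows were also richer in G and C, at 56% (*Spred2*) to 70.8% (*Spred1*), than the median promoter at 52.4%. No member promoter held an ETS motif (CCGGAA, 12.0% of all promoters), an AP-1 motif (TGANTCA, 6.75%) or a TATA box (TATAAA, 12.4%) in this window. These are matches of letters and say nothing of binding in lung ECs.

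The sorted cells carried endothelial transcripts at high levels, together with those of other lung cells, which differed between libraries. Levels are in FPKM, that is, fragments divided by transcript length and by library size, and values are listed in the order S38, S44, S52 unless libraries are named. Medians of 378, 393 and 379 FPKM were seen over 10 endothelial genes and of 661, 663 and 582 FPKM over 5 lung capillary genes. The FPKM of 4 platelet genes summed to 1692, 1345 and 38, and the 5 alveolar type 2 genes gave 3778, 3164 and 755. The sums were 2792, 2317 and 418 over 5 airway genes and 1080, 814 and 171 over 9 leukocyte genes, nearly all of it *Lyz2* (1047, 780 and 166), and *Cd3e* and *Nkg7* were listed at 0 in S52 and *Ptprc*, the CD45 gene, went from 4.30 to 2.06 and 0.434 FPKM. Mural genes (5) gave 115, 60.2 and 111, fibroblast genes (4) 68.5, 51.7 and 36.5, and lymphatic genes (4) 565, 623 and 414, of which *Lyve1* made up 539, 597 and 390. *Prox1*, the lymphatic regulator, stayed below 1 FPKM and, like *Pdpn*, was highest in S52. The 9 genes of the dissociation response summed to 3325, 4144 and 4866 FPKM, of which *Ier3* made up 884, 1124 and 1873. Their medians were 271, 384 and 363 FPKM. In a bulk sample, fewer cells of a type and less RNA per cell cannot be told apart. The low values of the table correspond to about 37600000, 38700000 and 34600000 fragments, an estimate from their steps.

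The 10 feedback genes spanned a wide range, with *Dusp1* far above the rest and *Dusp2* at the bottom. Means ran from 2.34 to 413 FPKM, and the median of the 10 means was 12.6 FPKM, close to the median of 11.2 FPKM over the 11770 genes whose mean reached 1 FPKM, called detected here. At least 1 FPKM was reached in every library by 9 of the 10 members, as it was by 43.9% of all genes in the table, and the exception was *Dusp2*, at 0.984 FPKM in S44. At least 10 FPKM was reached in every library by 6 members (*Dusp1*, *Dusp6*, the 3 Sprouty genes and *Spred2*). In each library 3 members (*Dusp2*, *Dusp4* and *Spred1*) stayed below 10 FPKM. Among all 24346 genes, 6269 reached 10 FPKM in the mean, which is a looser limit than in every library. *Dusp1* alone made up 78.0%, 71.1% and 75.3% of the summed FPKM of the 10 genes in S38, S44 and S52.

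**Figure D1:**
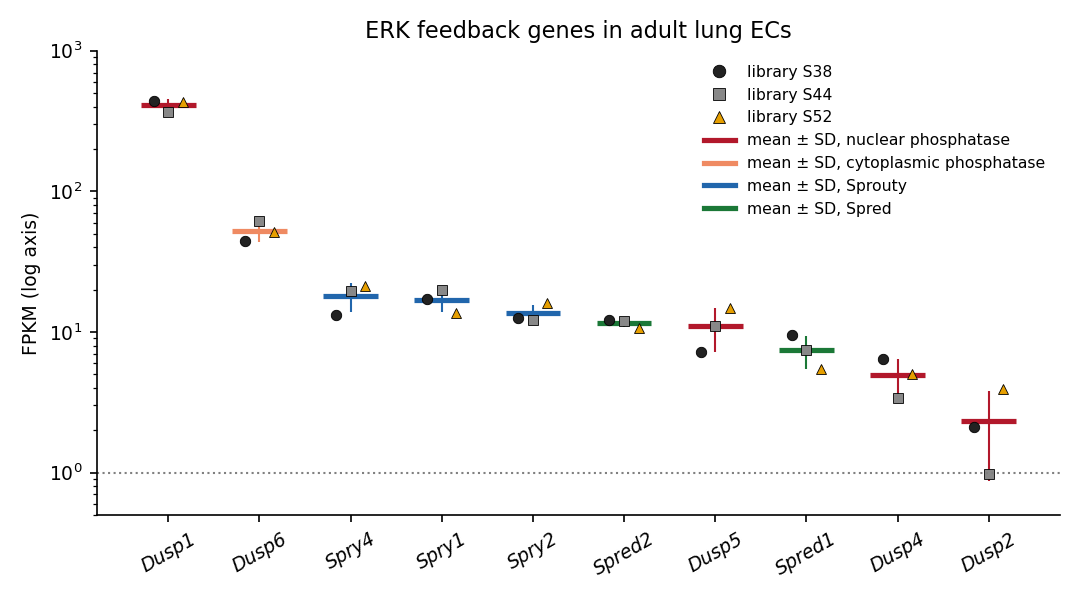
Levels of the 10 ERK feedback genes, in FPKM on a log axis, ordered by mean. Points are the 3 libraries, horizontal bars the mean and vertical bars the SD (n = 3), coloured by class, and the dotted line is 1 FPKM. *Dusp1* sits at 366 to 441 FPKM in all 3 libraries, *Dusp6* follows at 44 to 62.0 FPKM, and *Dusp2* touches the dotted line in S44.

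The nuclear phosphatases held both ends of the order. *Dusp1* encodes a phosphatase that acts on p38 and JNK as well as ERK, and it lies on the minus strand of chromosome 17 (GRCm38, 26505590 to 26508519 for its longest coding transcript, 4 exons). S38 gave 441, S44 366 and S52 432 FPKM, with a mean of 413 ± 41.0 FPKM (SD, n = 3). S44 was the lowest library, and the highest was 1.20-fold above it. The mean ranks 266 among all genes, above 98.9% of them. Among the 24 symbols made of Dusp and a number it was the highest, followed by *Dusp3* at 117 ± 9.38 FPKM (SD, n = 3). Of the 24, 19 were detected, against 11770 of all 24346 genes. An overlap of 11 exon bases with *Ergic1* on the other strand is the only one of *Dusp1*, whose library kit keeps no strand.

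*Dusp5* is specific to ERK and resides in the nucleus. It lies on the plus strand of chromosome 19 (53529109 to 53542431, 4 exons). Its level was 7.22 FPKM in S38, against 11.1 in S44 and 14.7 in S52, and averaged 11.0 ± 3.76 FPKM (SD, n = 3). The libraries stand apart in that order, with a 2.04-fold range. An antisense gene without a row in the table shares 547 exon bases with *Dusp5*, and without strand its reads cannot be told from those of *Dusp5*. *Dusp4*, a nuclear phosphatase of ERK and JNK (plus strand of chromosome 8, 34807297 to 34819894, 4 exons), had 6.38, 3.38 and 5.01 FPKM and averaged 4.92 ± 1.5 FPKM (SD, n = 3). Its lowest library was S44, as for *Dusp1*, but the range was wider at 1.88-fold.

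*Dusp2*, first known from activated lymphocytes, was the lowest member in every library. The gene is compact, spanning 2218 bp on the plus strand of chromosome 2 (127336159 to 127338376) with 4 exons. Its values were 2.12 (S38), 0.984 (S44) and 3.90 FPKM (S52), with a mean of 2.34 ± 1.47 FPKM (SD, n = 3). S52 was the highest and S44 the lowest, a 3.97-fold range. Over the estimated depths these levels stand for 55 to 191 fragments, with a counting error of up to 13.4%, against a coefficient of variation of 63.0%. The B cell gene *Cd79a* was at 8.70, 7.32 and 3.17 FPKM and the T cell gene *Cd3e* at 0.206, 0.261 and 0 FPKM, and the part of lymphocytes in the level of *Dusp2* was not tested. *Dusp2* was the one member whose highest library was over 2-fold above the lowest after adding 1 FPKM (2.47-fold), where 12.7% of detected genes passed the same limit. With a smaller pseudocount of 0.1 FPKM, *Dusp5* passed too, at 2.03-fold. With 1 FPKM added, no member passed without S44 or without S52.

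Patterns over the 3 libraries were compared on the log2 scale of FPKM + 1. Of 6269 other genes whose mean reached 10 FPKM, 8 lay within 0.25 log2 units of the pattern of *Dusp2*. The added 1 FPKM narrows the range of *Dusp2* from 3.97-fold to 2.47-fold, and it narrows the ranges of higher genes less. The nearest were *Ythdc1*, at a distance of 0.17, *BC002163* and *Actc1*, at 0.21 each, *Ahnak* at 0.22 and *Dynll2* at 0.23. *Ythdc1*, which encodes a reader of methylated adenosine in RNA, stood at 32.1, 20.7 and 45.2 FPKM. A pattern over 3 libraries has few values to match.

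*Dusp6*, the ERK phosphatase of the cytoplasm, was the second member in each library. It lies on the plus strand of chromosome 10 (99263231 to 99267489, 3 exons in its longest coding transcript). S38 gave 44, S44 62.0 and S52 51.4 FPKM, a mean of 52.5 ± 9.05 FPKM (SD, n = 3), which ranks 1667 among all genes. *Dusp6* was highest in S44, the library in which *Dusp1* was lowest. The ratio of *Dusp1* to *Dusp6* on the FPKM scale was accordingly 10.0, 5.90 and 8.41.

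The 3 Sprouty genes lay between 12.2 and 21.3 FPKM and changed places between libraries. *Spry4* (minus strand of chromosome 18, 38586247 to 38601415, 2 exons) had 13.2 FPKM in S38 but 19.7 in S44 and 21.3 in S52, a mean of 18.1 ± 4.26 FPKM (SD, n = 3). *Spry1*, known for holding back the ureteric bud in the kidney, lies on the plus strand of chromosome 3 (37639947 to 37644598, 2 exons). It had 17.2, 20.0 and 13.6 FPKM, a mean of 16.9 ± 3.17 FPKM (SD, n = 3). S52 was thus the highest library of *Spry4* and the lowest of *Spry1*, and the ratio of *Spry4* to *Spry1* was 0.769, 0.988 and 1.56. A gene model of unproven coding status on the other strand, without a row in the table, shares 710 exon bases with *Spry1*.

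*Spry2*, an inhibitor that is itself phosphorylated on receptor activation, lies on the minus strand of chromosome 14 (105891947 to 105896819, 2 exons). Its level was 12.6 FPKM in S38, 12.2 in S44 and 16 in S52, a mean of 13.6 ± 2.08 FPKM (SD, n = 3). S38 and S44 were nearly equal and S52 stood above both. Summed over the 3 genes, Sprouty expression was 43.0, 51.9 and 50.9 FPKM, a mean of 48.6 ± 4.85 FPKM (SD, n = 3). The sum was below the level of *Dusp6* alone in each library, though by less than 1 FPKM in S38 and S52. In S52 the gap was smaller than the counting error of *Dusp6*, 1.47%.

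The Spred genes are long genes with 7 exons each. *Spred2* (plus strand of chromosome 11, 19924375 to 20024026) was the steadiest member, with 12.1 FPKM in S38, 12.0 in S44 and 10.7 in S52, a mean of 11.6 ± 0.803 FPKM (SD, n = 3). *Spred1*, the gene mutated in Legius syndrome, lies on the plus strand of chromosome 2 (117121374 to 117182279) and had 9.44, 7.42 and 5.47 FPKM, a mean of 7.44 ± 1.98 FPKM (SD, n = 3). *Spred2* was above *Spred1* in each library, and their ratio was 1.28, 1.62 and 1.95. *Spred1* was highest in S38 and lowest in S52, the order also seen for the summed platelet, alveolar type 2, airway, leukocyte and fibroblast genes. It is not particular to those lists. The endothelial gene *Kdr* had it too, at 380, 360 and 237 FPKM, though the summed endothelial genes did not. S52 was the lowest library for 46.3% of detected genes. The part of any of these cell types in the level of *Spred1* was not tested.

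Ordered by mean, the members were *Dusp1*, *Dusp6*, *Spry4*, *Spry1*, *Spry2*, *Spred2*, *Dusp5*, *Spred1*, *Dusp4* and *Dusp2*. Of the 9 pairs of neighbours in that order, 6 had overlapping ranges over the 3 libraries. The ranges parted between *Dusp1* and *Dusp6*, between *Dusp6* and *Spry4*, and narrowly between *Spry2*, whose lowest value was 12.2 FPKM, and *Spred2*, whose highest was 12.1 FPKM. This last gap is smaller than the counting error of either gene, at most 3.32% and 2.53%. *Spry4* was above *Spry1* in 1 of the 3 libraries, although its mean was higher. *Dusp1* and *Dusp6* in the first places, and *Dusp4* and *Dusp2* in the last, kept their places in each library, whereas *Dusp5* stood 8th in S38, 7th in S44 and 5th in S52. For all 10 genes the coefficient of variation, 6.93% to 63.0% with a median of 21.1%, was above the estimated counting error, and the median over detected genes was 17.6%.

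Since S52 differed most in the genes of other lung cells, it was set against the mean of S38 and S44. On the log2 scale of FPKM + 1, the ratio of S52 was 0.94 for *Dusp2*, 0.63 for *Dusp5*, 0.35 for *Spry4* and 0.34 for *Spry2*. It was 0.10 for *Dusp1*, 0.03 for *Dusp4* and -0.04 for *Dusp6*, and each of these 3 changed sign under another scaling of the libraries. At the other end were *Spred2* at -0.16, *Spry1* at -0.42 and *Spred1* at -0.54. The median over detected genes was -0.08. S52 was the highest library for 4 members, as for 33.9% of detected genes, and the lowest for 3 members, as for 46.3% of detected genes. The same ratio was a median of -4.85 over the platelet genes, -2.11 over the alveolar type 2 genes, -1.74 over the airway genes and -1.11 over the leukocyte genes. It was -0.22 over the fibroblast genes, 0.02 over the endothelial, 0.07 over the lymphatic, 0.11 over the dissociation response, 0.20 over the lung capillary and 0.65 over the mural genes. Single markers spread around these medians, as *Sec14l3* (airway) and *Csf1r* (leukocyte) at -0.15 each. Endothelial genes ranged from -0.65 for *Cldn5* to 0.72 for *Erg*. Lung capillary genes ranged from -0.98 for *Ednrb* to 0.42 for *Gpihbp1*.

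**Figure D2:**
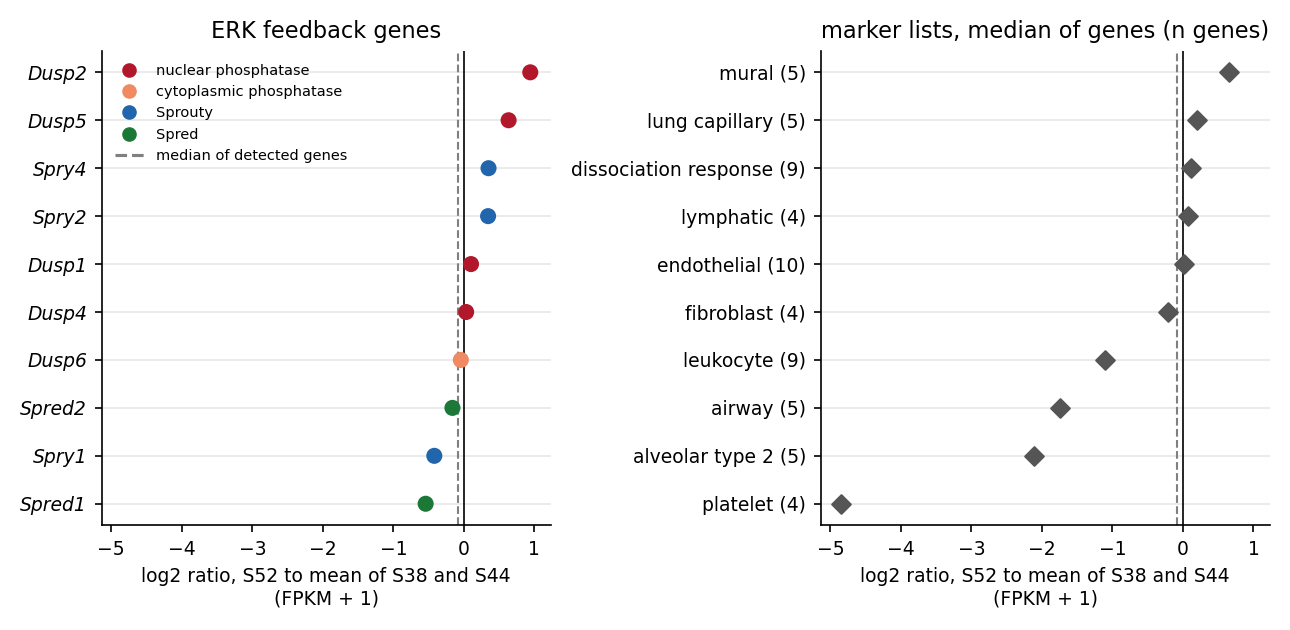
Log2 ratio of library S52 to the mean of S38 and S44 (FPKM + 1) for the 10 feedback genes (left, coloured by class) and the median of each marker list (right, number of genes in brackets). The solid line is 0 and the dashed line the median of detected genes, -0.08. The members lie between -0.54 and 0.94, whereas platelet genes lie at -4.85 and alveolar type 2 genes at -2.11.

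The remaining genes of these families were looked up next. Among 7 other MAP kinase phosphatases 6 were detected, with a median of 9.54 FPKM. *Dusp3*, a small phosphatase of ERK and JNK, led them and was above *Dusp6* in each library, at 106, 124 and 120 FPKM. *Dusp8* had 18.1 ± 3.89 FPKM and *Dusp16* 17.4 ± 3.18 FPKM (SD, n = 3 for each), and both act on JNK and p38. *Dusp7*, the close relative of *Dusp6*, was at 9.54 ± 0.984 FPKM and *Dusp10* at 2.66 ± 0.472 FPKM (SD, n = 3 for each). *Dusp9*, the third cytoplasmic ERK phosphatase, was at 0.166 and 0.0403 FPKM in S38 and S44 and listed at 0 in S52.

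*Dusp14* behaved unlike the rest of the phosphatases, with 8.32 FPKM in S38 and 6.33 in S44 but 0.0686 in S52. Its log2 ratio of S52 to the mean of the others was -2.96, between the medians of the alveolar type 2 and the platelet genes. *Spred3* was likewise lowest in S52, at 1.23, 1.88 and 0.158 FPKM. *Spry3* was listed at 0 in all 3 libraries, so that 3 of the 4 Sprouty genes were detected in these bulk samples. The part of platelets or epithelial cells in *Dusp14* and *Spred3* was not tested.

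The cascade that these inhibitors act on was present throughout. All 17 genes from *Shc1* to *Mapk3* were detected, with a median of 26.9 FPKM, and none had a range over 2-fold. *Mapk3*, one of the genes for ERK, was the highest at 371 ± 44.1 FPKM (SD, n = 3), a level near that of *Dusp1*. The adaptor gene *Grb2* was at 46.5 ± 4.08 FPKM, and the RAS activator *Sos1* was lowest at 4.26 ± 0.104 FPKM (SD, n = 3 for each). S52 was the highest library for 9 of the 17, against 33.9% of detected genes, and the lowest for 4, against 46.3%. Among detected genes it was the lowest for 4 of 6 other phosphatases, 8 of 14 other inhibitors and 8 of 14 receptor tyrosine kinases.

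Other inhibitors of RAS and ERK signalling were detected as well, 14 of 14, with a median of 15.4 FPKM. *Pea15a*, which holds ERK in the cytoplasm, was at 216 ± 28.3 FPKM, the RAF inhibitor *Pebp1* at 102 ± 15.3 FPKM and the EGF receptor inhibitor *Errfi1* at 62.0 ± 11.0 FPKM (SD, n = 3 for each). *Lrig1* was the lowest at 2.02 ± 0.469 FPKM (SD, n = 3), and *Rasa3* was the one gene of this list over 2-fold between libraries.

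Of the target genes of ERK 13 of 16 were detected, with a median of 19.4 FPKM. *Ier3* had 884, 1124 and 1873 FPKM, above *Dusp1* in each library. *Fos*, at 482 ± 30.7 FPKM (SD, n = 3), was also above *Dusp1* in each library, and *Egr1*, at 337 ± 64.1 FPKM (SD, n = 3), was above it in S44 alone. These 3 are also in the dissociation response list, and all 3 libraries were made from dissociated tissue. The part of dissociation in their levels, or in that of *Dusp1*, was not tested. *Etv4*, an ETS factor commonly induced along with *Dusp6* and *Spry4* by FGF, was the lowest target gene at 0.374, 0.0118 and 0.297 FPKM. Its relative *Etv5* was at 8.26, 6.59 and 2.32 FPKM.

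Receptor tyrosine kinases were detected for 14 of 15 genes, with a median of 8.24 FPKM. They were led by the endothelial receptors *Tie1* at 404 ± 26.0 FPKM, *Tek* at 333 ± 29.7 FPKM and *Kdr*, the main VEGF receptor gene, at 326 ± 77.6 FPKM (SD, n = 3 for each), whereas *Met* was at 0.510 ± 0.290 FPKM (SD, n = 3). Of the MAP kinases outside the ERK cascade 6 of 8 were detected, with a median of 10.9 FPKM, led by *Mapk12* at 46.9 ± 6.96 FPKM, *Mapk14* at 37.3 ± 5.18 FPKM and *Mapk9* at 28.7 ± 0.850 FPKM (SD, n = 3 for each). *Mapk10*, the neuronal JNK gene, was listed at 0 in S38 and S52. Over all 7 lists 71 of 79 genes were detected, as were 11770 of all 24346 genes in the table.

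**Figure D3:**
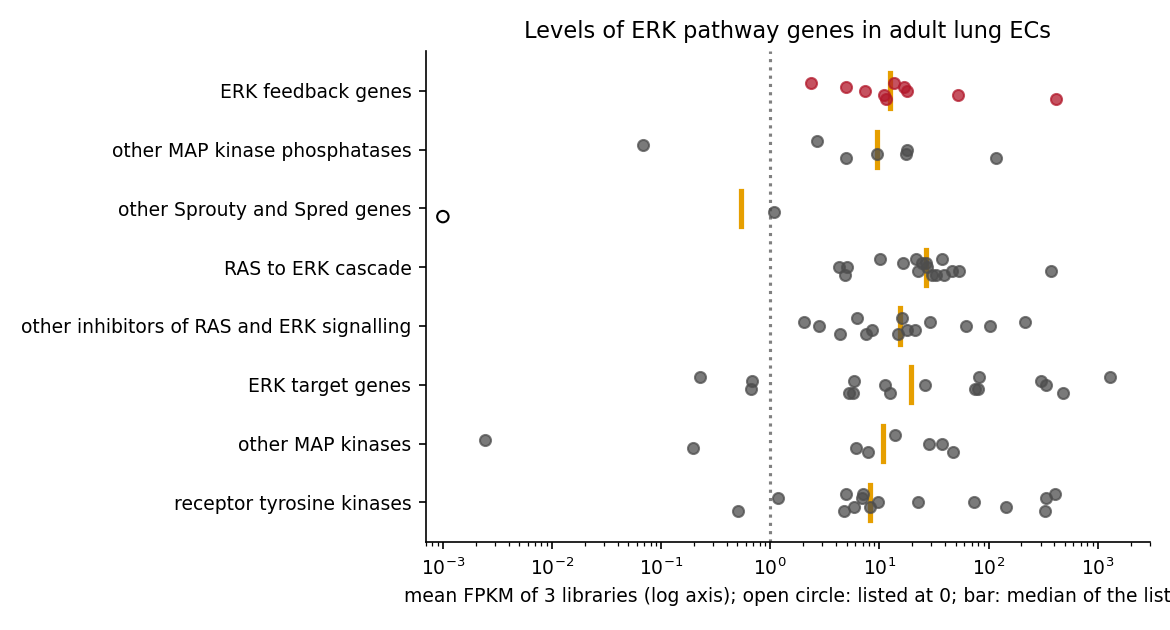
Mean FPKM of 3 libraries, on a log axis, for the 10 feedback genes (red) and the genes of 7 other pathway lists (grey), with the median of each list as an orange bar. The open circle is *Spry3*, listed at 0, and the dotted line is 1 FPKM. The feedback genes have a median of 12.6 FPKM and the cascade from *Shc1* to *Mapk3* one of 26.9 FPKM.

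The 3′ untranslated regions of the members differed in AU-rich pentamers, the ATTTA motif found in many short-lived transcripts. In the longest coding transcript of each gene in GENCODE M21, *Dusp1* has 4 of them in 690 bases and *Dusp2* 4 in 581 bases, or 5.80 and 6.88 per kb. Those densities are above 96.6% and 98.1% of 9778 detected genes with a region of at least 200 bases, whose median was 1.46 per kb. The other 8 members lay between 0.841 per kb in *Dusp6* and 2.77 per kb in *Spred1*, which has 12 in 4330 bases. The longer form TATTTAT was present in 7 members, all but *Dusp4*, *Dusp5* and *Dusp6*, and in 33.1% of the detected genes. Its presence was not corrected for length. The regions of *Spry4*, *Spred1* and *Spred2* have 3559, 4330 and 2579 bases, against a median of 1302 in the detected genes, and the other members have shorter ones than that. The highest and the lowest member by level were thus the densest in ATTTA. Counts of letters in an annotated region carry no measure of how long a transcript lasts in these cells.

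**Figure D4:**
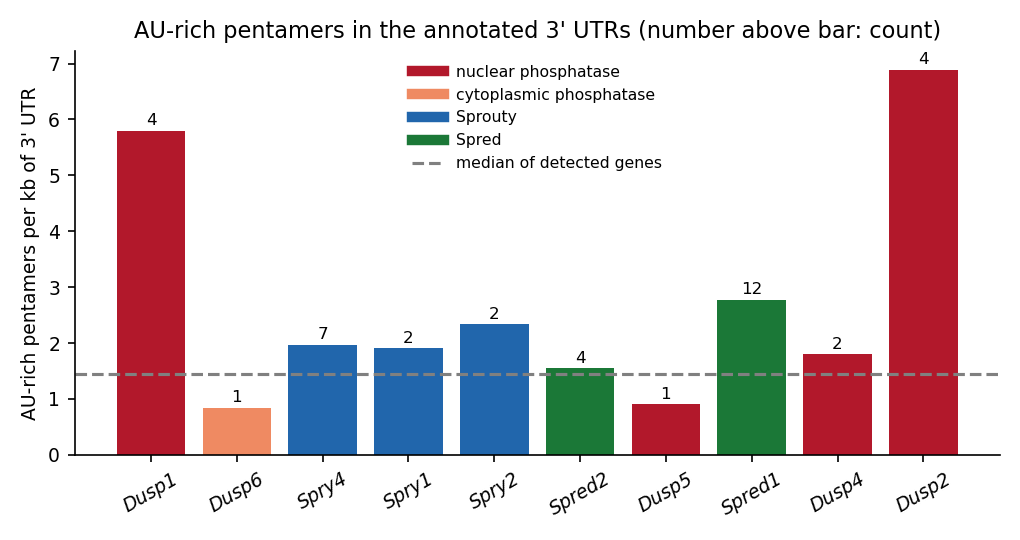
Number of AU-rich pentamers per kb of annotated 3′ untranslated region for each member, ordered by mean FPKM from left to right, with the count above each bar and the median of detected genes as a dashed line. *Dusp1* and *Dusp2*, at 5.80 and 6.88 per kb, stand above the other 8 members.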

How the data were processed

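Bulk poly-A RNA-seq of adult lung ECs was analysed in 3 libraries (51 bp paired reads, unstranded kit). The table deposited by the authors holds 1 FPKM value per symbol and library, on mm10. The submitters' processing notes list bcl2fastq 2.17, FastQC 0.11.5, Trimmomatic 0.36, TopHat2 2.1.0 and Cufflinks 2.2.1, whereas the paper's methods describe another aligner and gene counts. The annotation and the Cufflinks options are not given in the sources used here, nor is why 4568 genes, *Spry1* and *Spred1* among them, carry more than 6 significant digits. Column sums were 1153890, 1603596 and 1419351 FPKM in S38, S44 and S52.

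Values were used as deposited, with no count model and no test, since there is 1 condition. Means and SDs are on the FPKM scale. Log2 ratios and fold limits used FPKM + 1, which understates changes of low genes. Detected means an average of 1 FPKM or more. Depth was estimated from transcripts of 800 to 4000 bp in 6063 genes with 1 coding transcript, by the step that turns low FPKM values into whole fragments. Within 0.15 of a whole number lay 79.7% of 222 values in S38, 77.1% of 280 in S44 and 80.7% of 135 in S52, a step searched to fit them. The method was checked only on counts simulated under its own assumptions, which cannot show how well the real values meet them. Fragment numbers of a member assume its longest coding transcript and cover counting error only.

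Positions, exons and 3′ regions are those of GENCODE M21 (GRCm38, the sequence of mm10), and promoters those of RefSeq on GRCm38.p6. All 10 members are named with every library. Of each other list the 3 highest genes and the lowest were named, with every other phosphatase, Sprouty and Spred gene, and the 5 genes nearest to the member of widest range. Of these, 1 gene that this rule names is not reported here. *Rasa3*, *Etv5*, the single marker genes named and the sequence motifs were chosen after values were seen. Members and lists were chosen with earlier results of these data known. All per-sample columns were used (0 left out). Python 3.11.15, pandas 2.3.3 and numpy 2.4.6 were used. Alternatives were leaving out each library, 2 rescalings, another pseudocount, other detection limits and other filters on low values.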

Additional observations from a re-analysis of the deposited data

How the results depend on the processing

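Leaving out each library in turn gave 0 to 1 members over 2-fold between libraries, against 1 (*Dusp2*) with all 3, and 0 without S44 (replicate 2) or without S52 (replicate 3). Rescaling each library to a sum of 1000000 gave 2 (*Dusp2* and *Dusp4*), as did median-of-ratios scaling and a pseudocount of 0.1 FPKM (*Dusp2* and *Dusp5* in each). The share of all detected genes over 2-fold was 12.7%, with 2.14% without S52, 8.36% without S38, 9.56% without S44, 15.2% with equal sums, 12.3% with median-of-ratios scaling, 19.3% with a pseudocount of 0.1 FPKM, 7.53% with no filter on low values and 7.90% among genes averaging 10 FPKM or more. The median level of the members was 12.6 FPKM, 12.2 to 13.5 FPKM with a library left out, and 9.20 FPKM after rescaling to the same sum, which divides by sums above 1000000 and so lowers every level. At a limit of 10 FPKM in place of 1, 45 of the other pathway genes were detected in place of 71. Over all 24346 genes the counts were 6269 in place of 11770. The ratio of S52 to the mean of S38 and S44 turned sign for *Dusp1* (-0.0015) and *Dusp4* (-0.089) with equal sums and for *Dusp6* (0.039) with median-of-ratios scaling, all near 0. The number of members detected in every library was 9, with 6 at 10 FPKM and 10 at 0.1 FPKM or without S44. With equal sums, the levels of 6 single members fell by more than 1 SD, and with median-of-ratios scaling none moved by that much. Leaving out 1 of 3 libraries cannot move a mean by 1 SD of the 3, so those values were no test of the levels. Depth limits *Dusp2* most, with an estimated 55 fragments in S44. No paired analysis was possible because there is 1 group.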
